A study of Mus musculus with 12 samples.

Results

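Receptors that neurons use to sense inhibitors of axon growth were followed through 12 RNA libraries of retinal ganglion cells. The members were 10 of the 38887 genes in the deposited table, taken by gene name: the Nogo receptors Rtn4r, Rtn4rl1 and Rtn4rl2, their co-receptors Lingo1, Ngfr and Tnfrsf19, the paired immunoglobulin-like receptor Pirb, and the LAR-family receptor tyrosine phosphatases Ptprs, Ptprf and Ptprd. All 10 were found, each in 1 row. The series asked which genes regulate the regrowth of ganglion cell axons in the mouse. RNA came from hand-picked fluorescent cells, and each library was made from 30 cells, 10 from each of 3 mice.

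The libraries formed 4 groups of 3. Opn4 crush and Opn4 sham cells came from Opn4CreERT/+;R26-tdTomatof/f mice, in which the melanopsin gene drives a tamoxifen-dependent Cre recombinase that turns on a red reporter in melanopsin ganglion cells. The HB9 crush and HB9 sham libraries were made from the line HB9:GFP, whose HB9 transgene marks ON-OFF direction-selective ganglion cells in green. Mice of both lines, crush and sham alike, received tamoxifen at 0.124 mg per g body weight on 5 days from postnatal day 21. Surgery was an optic nerve crush or a sham operation, and retinas were collected 3 days later. Postnatal day 42 is recorded as the day of surgery or collection. Cre and the red reporter were present in the Opn4 line alone, so that the difference between classes cannot be told apart from the difference between mouse lines. The sham groups were operated on and no unoperated group was analysed here.

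In the optic nerve, as in other central tracts, myelin and scar carry molecules that halt growing axons. The myelin proteins Nogo-A (gene Rtn4), MAG and OMgp (gene Omg) bind the GPI-anchored Nogo receptor NgR1 (gene Rtn4r), which has no cytoplasmic part. It signals through partners such as LINGO-1, the neurotrophin receptor p75 (gene Ngfr) and TROY (gene Tnfrsf19). The signal reaches the small GTPase RhoA, which restrains the growth cone. Ligands of the related NgR2 and NgR3 are named with their genes below. PirB is another receptor for the same myelin proteins, and the phosphatases PTPσ (gene Ptprs) and LAR (gene Ptprf) bind the chondroitin sulfate chains of scar proteoglycans, while the same family also organises synapses through other ligands.

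Values are RPKM, read numbers scaled by gene length and by library total, so that levels of different genes can be set side by side. Log2 changes were computed on log2(RPKM + 1) and are given as estimate ± standard error from 1 limma fit of all 12 libraries, with adjusted p-values over all 18269 genes tested. The libraries had been scaled to between 15104446 and 28195798 reads. The opsin gene Opn4 lay at 1313 to 1433 RPKM in Opn4 crush and 1255 to 1773 RPKM in Opn4 sham libraries, against 1.82 to 24.3 RPKM in HB9 crush and 0.158 to 20.2 RPKM in HB9 sham libraries. The sum of 16 ganglion cell markers was 6189 to 11970 RPKM in every library. Of 12 microglia and macrophage markers, C1qb, C1qc, Ctss and Fcer1g were at 0 in all 12 libraries and 9 stayed under 1 RPKM, but Cd68 reached 92.9 to 125 RPKM in HB9 crush, against 0.0354 to 0.129 RPKM in HB9 sham libraries. Rod markers were present in every library, with a summed level of 1194 to 3431 RPKM in Opn4 crush and 840 to 2176 RPKM in Opn4 sham, against 638 to 1052 RPKM in HB9 crush and 327 to 1092 RPKM in HB9 sham. Opn4 crush 1 and Opn4 sham 1 stood apart from the others on the third principal component. Opn4 crush 1 also had the most rod RNA, and 10 of its 12 Muller glia and astrocyte markers were at 1 RPKM or more, against 5 to 7 in the other 11 libraries, though the sum of that list was highest in HB9 crush 2, at 2244 RPKM. The part of these markers in the results below was not tested beyond the alternatives named there. In pooled cells, fewer cells that express a gene and less RNA per cell cannot be told apart. Where groups of 3 libraries are said to overlap or not, this is a description without a test. The share of all genes without overlap is not given here, so a lack of overlap in an uncalled gene is no result by itself.

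On the deposited scale, Ptprs had the highest mean RPKM of the 10 receptors in every group. In Opn4 sham its libraries overlapped those of Rtn4rl1, the next in order, and in the other 3 groups they stood above the next receptor without overlap. The deposited values correspond to a length of 6970 bases for Ptprs, against 14990 bases of exons in the GENCODE annotation. With the deposited values only rescaled to each member's GENCODE length, the Ptprs mean was 170.3 RPKM in Opn4 crush and 79.1 RPKM in Opn4 sham libraries. It was 50.1 RPKM in HB9 crush and 63.7 RPKM in HB9 sham libraries. In both sham groups Rtn4rl1 was then the highest, at 127 RPKM in Opn4 sham and 82.0 RPKM in HB9 sham libraries. Reads on exons beyond the deposited length may not have been counted, which would make these Ptprs values too low. The rank of Ptprs in the sham groups is therefore uncertain. On the deposited scale, Rtn4rl1, Lingo1 and, in Opn4 cells, Ptprf followed, with means of 32.0 to 127 RPKM. Ngfr, Tnfrsf19 and Pirb were low in every group, none above 8.82 RPKM in any library, and in Opn4 sham libraries Rtn4rl2, listed at 0, was below all 3. In HB9 cells Ptprf was among the low members, with means of 6.16 RPKM after crush and 8.06 RPKM after sham, and its libraries overlapped those of Ptprd after crush but not after sham. Pirb did not reach 1 RPKM in 3 libraries and was not tested, which left 9 tested members.

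**Figure D1:**
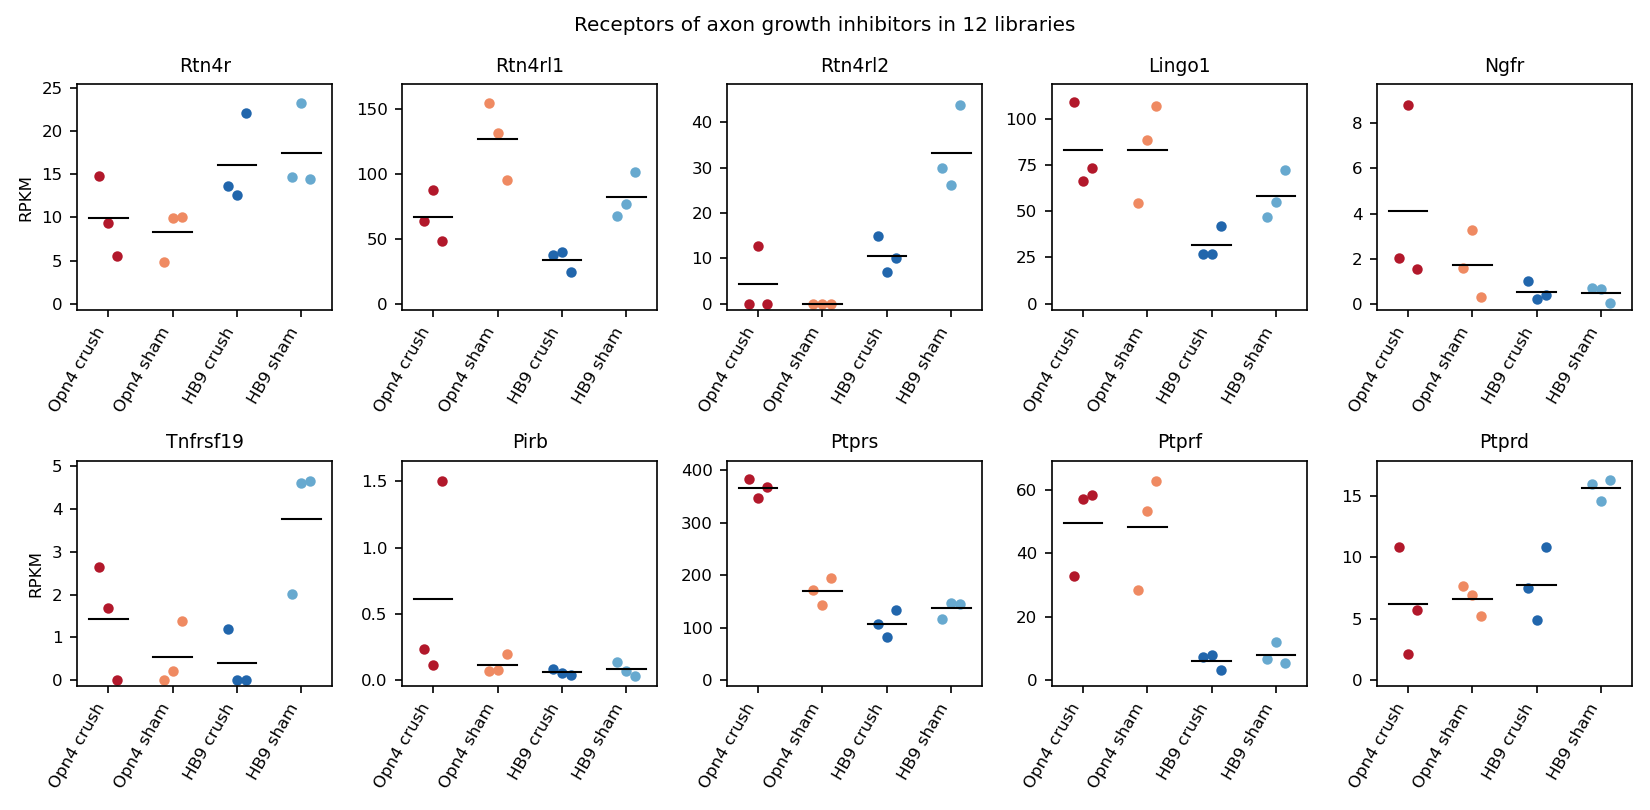
RPKM of the 10 receptors in each library, on a linear axis for each gene. Points are the 3 libraries of a group and lines their mean. Ptprs lies at 348 to 383 RPKM in Opn4 crush and below 200 RPKM in every other library, and in both classes the Rtn4rl1 points after crush lie below those after sham.

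Of the Nogo receptors, Rtn4rl1 was the most abundant in each of the 12 libraries, and in both classes every crush library lay below every sham library. It encodes NgR3, a GPI-anchored receptor that binds chondroitin sulfate proteoglycans (ENSMUSG00000045287, chr11:75193783-75267769, plus strand, mm10). In Opn4 crush libraries Rtn4rl1 measured 64.1, 87.9 and 48.4 RPKM, against 155, 131 and 95.5 RPKM in Opn4 sham libraries. In HB9 crush libraries it measured 37.4, 39.9 and 24.2 RPKM, against 67.5, 77.1 and 101 RPKM in HB9 sham libraries. The HB9 crush libraries held the 3 lowest values of the 12. The log2 change was -1.26 ± 0.28 in HB9 cells, 2.40-fold lower after crush, and passed the test (limma, adjusted p = 0.0169). In Opn4 cells it was -0.93 ± 0.28, 1.91-fold lower, and missed the threshold (limma, adjusted p = 0.145). The difference of the crush effects, 0.33 ± 0.40, was not past the threshold either (limma, adjusted p = 0.797), with a 95% interval from -0.53 to 1.19. Averaged over both classes, a comparison added after the data were seen, the log2 change was -1.10 ± 0.20 (limma, adjusted p = 0.0049). The call in HB9 cells was lost without HB9 crush 3 (-1.05, adjusted p = 0.0813), HB9 sham 2 (-1.30, adjusted p = 0.054) or HB9 sham 3 (-1.10, adjusted p = 0.0795). The call for the average held in all 21 alternatives, with an adjusted p of 0.0211 at most.

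Rtn4rl1 was the 1 tested member of 9 that passed the test after crush in HB9 cells, where 6.42% of all genes tested passed, and the 1 member of 9 in the average over both classes, where 6.98% did. Beside it, 5 of the 16 ganglion cell markers fell and 1 rose after crush in HB9 cells, among a list median of -0.67 on the log2 scale, and 1 of 16 fell in Opn4 cells, with a median of -0.14. The 12 Muller glia and astrocyte markers summed to 851 to 2244 RPKM in HB9 crush, against 456 to 509.7 RPKM in HB9 sham libraries, without overlap. Of the 7 that were tested, 2 rose (Clu, at a mean of 1436 RPKM in HB9 crush against 223 RPKM in HB9 sham libraries, and Vim, at 26.6 against 1.48 RPKM) and Dkk3 fell, with a list median of 1.25. Rlbp1 and Apoe of the same list were not called but were higher after crush without overlap. Rlbp1 measured 14.7 to 31.5 RPKM in HB9 crush, against 2.30 to 3.73 RPKM in HB9 sham libraries. Apoe measured 3.51 to 6.18 RPKM in HB9 crush, against 0 to 3.05 RPKM in HB9 sham libraries. Aqp4 and Sox9, also of that list, were at 0 in all 6 HB9 libraries, and Slc1a3 stayed at or under 0.00885 RPKM there. Among 9 amacrine markers Slc6a9 and Nhlh2 rose in HB9 cells and 0 were called lower. Gjd2 of that list was not called but was lower after crush without overlap. It measured 1.30 to 5.36 RPKM in HB9 crush, against 7.13 to 23.8 RPKM in HB9 sham libraries. The part of these markers in the lower Rtn4rl1 was not tested. The median of all genes was 0.18 higher in HB9 crush than in HB9 sham libraries on the log2 scale, and with the library medians made equal the change of Rtn4rl1 in HB9 cells was -1.44 (limma, adjusted p = 0.00727).

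Rtn4rl2 was far lower in Opn4 than in HB9 cells after sham. It encodes NgR2, a receptor with high affinity for MAG (ENSMUSG00000050896, chr2:84871924-84886710, minus strand). It was listed at 0, 12.8 and 0 RPKM in Opn4 crush libraries and at 0 in all 3 Opn4 sham libraries. In HB9 crush libraries it measured 14.9, 6.92 and 9.96 RPKM, against 29.9, 26.2 and 43.8 RPKM in HB9 sham libraries. Every HB9 library held Rtn4rl2 reads, and of the 6 Opn4 libraries only Opn4 crush 2 did, with 348. With a floor of 3 reads over the Opn4 sham group, Rtn4rl2 was at least 995-fold lower in Opn4 sham than in HB9 sham libraries, a bound for counting error only. In the fit its class difference after sham, Opn4 minus HB9, was -5.07 ± 0.81 (limma, adjusted p = 0.0013), and it held in all 22 alternatives. A single listed 0 was commoner in the Opn4 groups: among genes with at least 10 RPKM in a pair of libraries of a group, 1.11% in Opn4 crush and 0.626% in Opn4 sham were at 0 in the remaining library, against 0.0623% in HB9 crush and 0.0109% in HB9 sham.

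After crush the class difference of Rtn4rl2 was -2.22 ± 0.81 and missed the threshold (limma, adjusted p = 0.0972). It passed without Opn4 crush 2, the 1 Opn4 library with reads, at -3.48 (limma, adjusted p = 6.26e-04), and when the recovered reads were fitted with limma voom (adjusted p = 0.044). Within HB9 cells the crush libraries lay below the sham libraries without overlap, and the log2 change was -1.59 ± 0.81 (limma, adjusted p = 0.326). That change passed with the HB9 libraries alone in the fit (limma, adjusted p = 0.0296) and without Opn4 crush 2 (limma, adjusted p = 0.0381).

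Rtn4r itself, which encodes NgR1, the receptor first found to bind Nogo (ENSMUSG00000043811, chr16:18127642-18152408, plus strand), passed no test. It measured 14.8, 9.37 and 5.59 RPKM in Opn4 crush libraries, against 4.89, 9.94 and 10.1 RPKM in Opn4 sham libraries. In HB9 crush libraries it measured 13.7, 12.6 and 22.1 RPKM, against 14.6, 23.3 and 14.5 RPKM in HB9 sham libraries. Crush and sham libraries overlapped in both classes, and after sham the Opn4 libraries lay below the HB9 libraries without overlap. The 95% intervals of its log2 crush effect ran from -0.71 to 1.11 in Opn4 cells and from -1.03 to 0.79 in HB9 cells.

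Shares of the Nogo receptors were also compared by group. Rtn4rl1 made up 83.6 ± 5.3% of the summed Nogo receptor RPKM in Opn4 crush and 93.4 ± 3.3% in Opn4 sham libraries (SD, n = 3 each). In HB9 cells its share was 55.6 ± 12.1% after crush and 61.6 ± 1.7% after sham (SD, n = 3 each). The summed level of the family was 60.6 ± 4.9 RPKM in HB9 crush and 132.8 ± 24.4 RPKM in HB9 sham libraries, and 81.0 ± 28.0 RPKM in Opn4 crush and 135.5 ± 27.4 RPKM in Opn4 sham libraries (SD, n = 3 each). No test was made of these sums and shares, and the sums join receptors with different ligands.

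**Figure D2:**
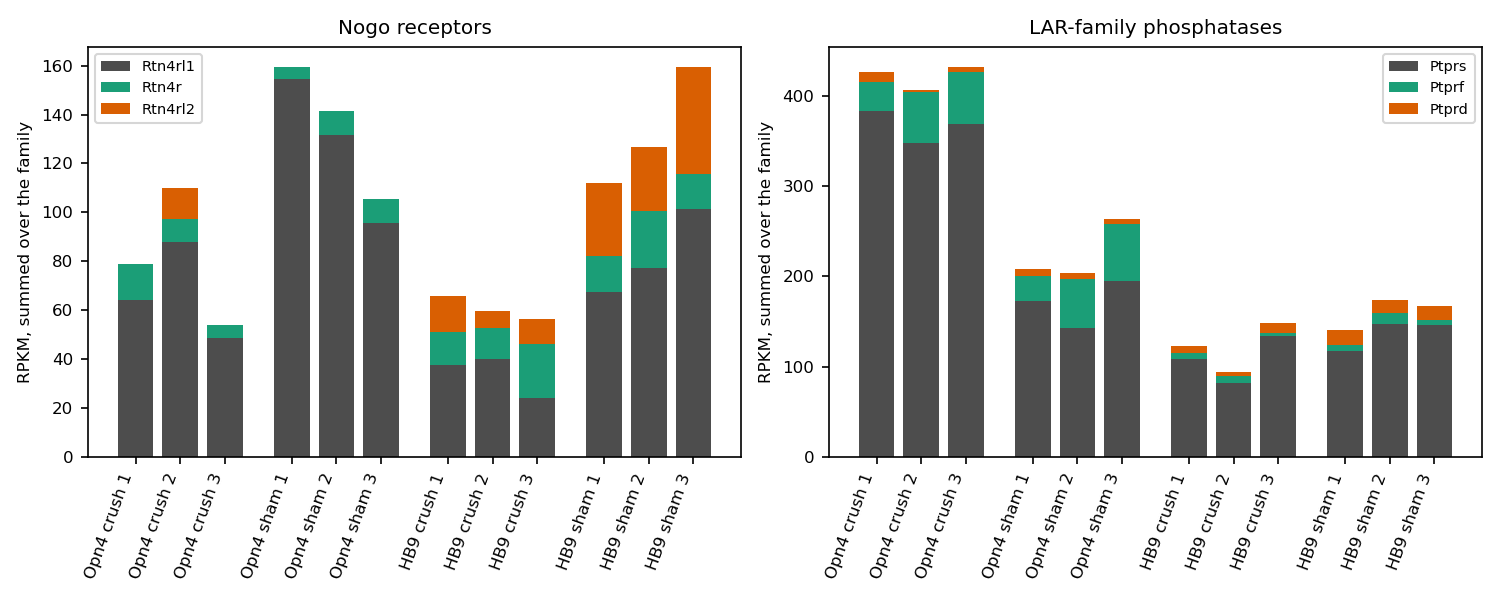
Summed RPKM of the 3 Nogo receptors (left) and of the 3 LAR-family phosphatases (right) in each library, with bars stacked by gene. Rtn4rl2 appears in 1 of 6 Opn4 libraries and in all 6 HB9 libraries, and Ptprs makes up most of the phosphatase sum in every library.

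Lingo1 was the main co-receptor, and its level differed between the classes after crush. It encodes a leucine-rich repeat protein that joins the Nogo receptor complex (ENSMUSG00000049556, chr9:56618475-56685253, minus strand). It measured 109, 66.2 and 73.6 RPKM in Opn4 crush libraries, against 54.6, 88.4 and 107 RPKM in Opn4 sham libraries. In HB9 crush libraries it measured 27.1, 27.1 and 41.8 RPKM, against 46.9, 55.2 and 72.1 RPKM in HB9 sham libraries. The HB9 crush libraries were the lowest of the 12 and overlapped with no other group, while Opn4 crush and Opn4 sham overlapped. After crush, Lingo1 was higher in Opn4 cells by 1.34 ± 0.30 on the log2 scale, 2.54-fold (limma, adjusted p = 0.0105), and this held in all 22 alternatives, with an adjusted p of 0.048 at most. After sham the difference was 0.48 ± 0.30 (limma, adjusted p = 0.351). The crush effect in HB9 cells was -0.85 ± 0.30 (limma, adjusted p = 0.123). It passed with weighted libraries (adjusted p = 0.0103) and without Opn4 crush 1 and Opn4 sham 1 together (adjusted p = 0.0445). The difference of the crush effects was 0.86 ± 0.42 (limma, adjusted p = 0.417).

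The co-receptors of the TNF receptor family were low. Ngfr encodes p75, which supplies the cytoplasmic signal of the Nogo receptor complex (ENSMUSG00000000120, chr11:95568818-95587735, minus strand). It measured 2.03, 8.82 and 1.55 RPKM in Opn4 crush and 1.60, 3.29 and 0.283 RPKM in Opn4 sham libraries, and no HB9 library exceeded 0.986 RPKM. After crush the Opn4 and HB9 libraries did not overlap, with a class difference of 1.5 ± 0.58 that missed the threshold (limma, adjusted p = 0.119). Muller glia can also express p75, and the highest Ngfr value was in Opn4 crush 2, where 6 of the 12 Muller glia and astrocyte markers were at 1 RPKM or more. The part of glial RNA in the Ngfr values was not tested. Tnfrsf19 encodes TROY, which can replace p75 in that complex (ENSMUSG00000060548, chr14:60963834-61046855, minus strand). It measured 1.19, 0 and 0 RPKM in HB9 crush libraries, against 2.02, 4.60 and 4.65 RPKM in HB9 sham libraries. In Opn4 cells it measured 2.63, 1.68 and 0 RPKM after crush and 0, 0.208 and 1.39 RPKM after sham. The HB9 groups did not overlap, and the change of -1.82 ± 0.57 missed the threshold (limma, adjusted p = 0.0864). It passed with the HB9 libraries alone (limma, adjusted p = 0.049) and with weighted libraries (adjusted p = 0.0192). Its class difference after sham, -1.68 ± 0.57 (limma, adjusted p = 0.0809), passed without Opn4 crush 3 (adjusted p = 0.0494).

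Pirb, an inhibitory receptor of the immunoglobulin superfamily that is mostly studied in myeloid cells, was close to 0 (ENSMUSG00000058818, chr7:3711409-3720391, minus strand). It measured 0.232, 0.111 and 1.5 RPKM in Opn4 crush and 0.0684, 0.0740 and 0.198 RPKM in Opn4 sham libraries. The highest value in HB9 cells was 0.0866 RPKM after crush and 0.140 RPKM after sham. Opn4 crush 3 alone exceeded 1 RPKM, with 142 reads, and the summed microglia and macrophage markers of that library were 5.79 RPKM, the lowest of the 3 Opn4 crush libraries. The part of myeloid RNA in the Pirb values was not tested. Of the 50-base words in Pirb transcripts, 34.0% also occur in other genes, so its value is uncertain.

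Among the LAR-family phosphatases, Ptprs rose after crush in Opn4 cells. It encodes PTPσ, a receptor of chondroitin and heparan sulfate proteoglycans (ENSMUSG00000013236, chr17:56412431-56476483, minus strand). In Opn4 crush libraries Ptprs measured 383, 348 and 368 RPKM, against 173, 143 and 195 RPKM in Opn4 sham libraries. In HB9 crush libraries it measured 108, 81.4 and 134 RPKM, against 117, 147 and 146 RPKM in HB9 sham libraries. The Opn4 crush libraries were the highest of the 12, with the lowest of them 1.78 times the highest library of the other groups, and the HB9 groups overlapped. The log2 change in Opn4 cells was 1.11 ± 0.19, 2.16-fold (limma, adjusted p = 0.0147), and in HB9 cells -0.36 ± 0.19 (limma, adjusted p = 0.348), with a 95% interval from -0.78 to 0.05. The summed Muller glia and astrocyte markers were at 849 to 1084 RPKM in Opn4 crush, against 577 to 665 RPKM in Opn4 sham libraries, also without overlap. Clu was the largest gene of that sum in Opn4 crush, at a mean of 591.5 RPKM, against 244.5 RPKM in Opn4 sham libraries. Dkk3 went the other way, at a mean of 224 RPKM in Opn4 crush, against 273 RPKM in Opn4 sham libraries. Of the 7 tested genes of that list 0 passed in Opn4 cells (limma, 1 at an unadjusted p under 0.05, Clu, with an adjusted p of 0.0624), and their part in the change of Ptprs was not tested.

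The difference of these effects was 1.48 ± 0.27 (limma, adjusted p = 0.0276). Ptprs was the 1 tested member of 9 called in the Opn4 crush comparison, where 1.11% of all genes passed, and the 1 of 9 called in the difference of crush effects, where 0.816% passed. The crush effect in Opn4 cells held without each of the 12 libraries, with an adjusted p of 0.0485 at most. It was 1.08 without Opn4 crush 1, the library with the most rod RNA (limma, adjusted p = 0.0432), and 1.15 with the rod markers as a covariate (limma, adjusted p = 0.0198). It missed the threshold with the Opn4 libraries alone in the fit (adjusted p = 0.102), with weighted libraries (adjusted p = 0.079) and without Opn4 crush 1 and Opn4 sham 1 together (1.09, adjusted p = 0.0684). The difference of effects was less stable in its call than in its size. It missed the threshold without Opn4 crush 1 (adjusted p = 0.0548), Opn4 crush 3 (0.0521), Opn4 sham 2 (0.0534), HB9 crush 1 (0.0664), HB9 crush 2 (0.0559), HB9 sham 2 (0.0849) or HB9 sham 3 (0.076), with estimates from 1.29 to 1.49. Without a filter on low values its adjusted p was 0.0518, and without Opn4 crush 1 and Opn4 sham 1 together 0.0692.

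The class difference of Ptprs passed the test after crush and not after sham. After crush it was higher in Opn4 cells by 1.78 ± 0.19 on the log2 scale, 3.44-fold (limma, adjusted p = 8.83e-05), a call that held in all 22 alternatives. After sham the difference was 0.31 ± 0.19 (limma, adjusted p = 0.362), with a 95% interval from -0.11 to 0.73. The gene length used scales every library of Ptprs alike and enters these comparisons only through the pseudocount.

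Because Ptprs was the member that rose, the 250 bases before each of its RefSeq starts are shown (GRCm38.p6, minus strand, 5′ to 3′), with capitals marking the E-box letters CACGTG. The upstream start lies at the 5′ end of the listed gene, with the window at chr17:56476481-56476730, and the inner start lies within it, with the window at chr17:56462222-56462471. For contrast in class expression, the same window of Rtn4rl2, which was listed at 0 in 5 of 6 Opn4 libraries, is given from chr2:84886693-84886942 (minus strand).
Ptprs, upstream start: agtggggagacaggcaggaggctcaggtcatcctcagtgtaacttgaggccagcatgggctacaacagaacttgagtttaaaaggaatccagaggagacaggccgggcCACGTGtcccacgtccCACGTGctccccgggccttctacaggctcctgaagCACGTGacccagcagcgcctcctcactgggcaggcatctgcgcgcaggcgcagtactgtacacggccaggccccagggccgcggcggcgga
Ptprs, inner start: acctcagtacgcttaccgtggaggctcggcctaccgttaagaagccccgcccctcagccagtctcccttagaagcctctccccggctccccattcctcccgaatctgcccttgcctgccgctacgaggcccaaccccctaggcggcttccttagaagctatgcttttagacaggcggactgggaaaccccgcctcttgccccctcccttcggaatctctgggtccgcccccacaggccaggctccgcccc
Rtn4rl2: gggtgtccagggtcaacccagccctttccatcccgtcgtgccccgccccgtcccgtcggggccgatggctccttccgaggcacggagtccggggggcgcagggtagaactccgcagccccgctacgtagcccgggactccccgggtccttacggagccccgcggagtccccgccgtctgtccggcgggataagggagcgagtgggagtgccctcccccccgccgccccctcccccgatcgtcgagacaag
RefSeq windows were found for 8 of the 10 receptors, 11 windows in all. None held the AP-1 letters TGACTCA or TGAGTCA (4.46% of 32851 promoter windows of the same length did), the CRE letters TGACGTCA (1.55%) or the TATA letters TATAAA or TTTATA (12.4%), on either strand. The E-box letters, chosen after the sequence had been seen and the same on both strands, occur in 6.02% of all windows, and 3 or more copies in 20 of them (0.0609%). The upstream window of Ptprs holds 3 copies, with first bases at -142, -126 and -91 from the start, its inner window holds none, and among the other members Tnfrsf19 holds 1 copy in 1 of 2 windows. The Rtn4rl2 window holds 29 CpG dinucleotides, more than 93.2% of all windows, against 15 in each Ptprs window. These matches describe the letters, and which start was used in these cells was not measured.

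Ptprf was higher in Opn4 than in HB9 cells under both conditions, and its crush effect passed in neither class. It encodes LAR, named above as a receptor of chondroitin sulfate chains (ENSMUSG00000033295, chr4:118208213-118291405, minus strand). It measured 32.8, 57.1 and 58.6 RPKM in Opn4 crush and 28.4, 53.5 and 62.9 RPKM in Opn4 sham libraries. In HB9 cells it measured 7.30, 7.84 and 3.34 RPKM after crush and 6.66, 12.2 and 5.34 RPKM after sham. No Opn4 library overlapped with an HB9 library. The class difference was 2.84 ± 0.42 after crush, 7.17-fold (limma, adjusted p = 8.79e-04), and 2.44 ± 0.42 after sham, 5.43-fold (limma, adjusted p = 0.00221), and both calls held in all 22 alternatives. The 95% intervals of its log2 crush effect ran from -0.85 to 0.98 in Opn4 cells and from -1.25 to 0.58 in HB9 cells.

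Ptprd, which encodes PTPδ, another synapse-organising receptor (ENSMUSG00000028399, chr4:75941238-78211961, minus strand), passed no test. It measured 10.9, 2.10 and 5.72 RPKM in Opn4 crush and 7.68, 6.93 and 5.26 RPKM in Opn4 sham libraries. In HB9 crush libraries it measured 7.55, 4.88 and 10.8 RPKM, against 16.0, 14.6 and 16.3 RPKM in HB9 sham libraries. The HB9 groups did not overlap, and the change was -0.98 ± 0.48 (limma, adjusted p = 0.297). Antisense genes such as Gm11246 and B230208B08Rik lie within Ptprd, and since the sources used here do not say whether reads were counted by strand, its level is uncertain.

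The family as a whole reached 422 ± 13.5 RPKM in Opn4 crush and 225 ± 33.0 RPKM in Opn4 sham libraries, and 122 ± 27.0 RPKM in HB9 crush and 161 ± 18.1 RPKM in HB9 sham libraries (SD, n = 3 each). Ptprs made up 86.8 ± 2.6% of the sum in Opn4 crush and 75.7 ± 6.4% in Opn4 sham libraries, and 88.3 ± 2.0% in HB9 crush and 85.2 ± 1.7% in HB9 sham libraries (SD, n = 3 each). The share of Ptprf was 11.8 ± 3.5% in Opn4 crush and 21.3 ± 6.7% in Opn4 sham libraries (SD, n = 3 each).

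**Figure D3:**
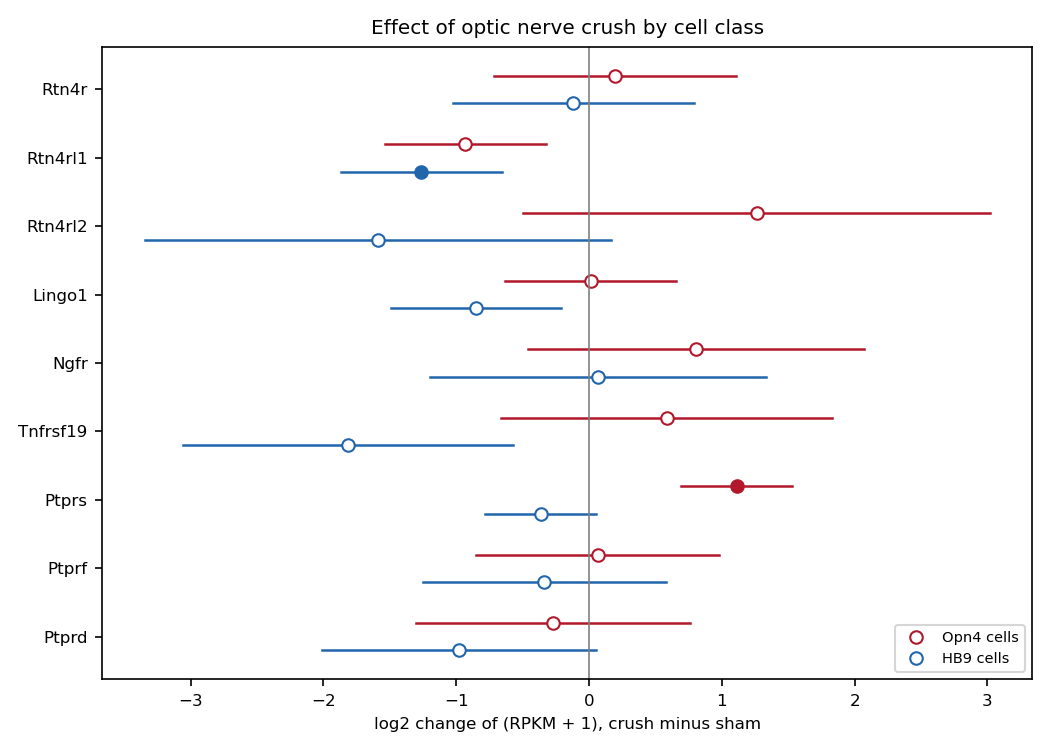
Effect of crush on the 9 tested receptors, as the log2 change of RPKM + 1 between crush and sham libraries, in Opn4 cells (red, above) and HB9 cells (blue, below), with 95% intervals from the limma fit. Filled points passed an adjusted p of 0.05: Ptprs in Opn4 cells at 1.11 and Rtn4rl1 in HB9 cells at -1.26.

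Over the 9 tested members, the median log2 crush effect was 0.20 in Opn4 cells, against -0.02 over all genes, and -0.85 in HB9 cells, against 0.11 over all genes. The median difference of the crush effects was 0.74, against -0.13 over all genes. The crush and class comparisons share libraries (the Opn4 sham group, for example, enters the crush effect in Opn4 cells and the class difference after sham), so these medians are not independent of each other. Between classes, 4 of 9 members passed after crush, each of them higher in Opn4 than in HB9 cells (Rtn4rl1, Lingo1, Ptprs and Ptprf), where 12.7% of all genes passed in either direction. After sham, 1 was higher (Ptprf) and 1 lower (Rtn4rl2), where 11.8% passed. The median class difference was 0.95 after crush and 0.31 after sham, against -0.12 and 0.01 over all genes.

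Of these calls, that of Rtn4rl1 after crush was the least firm, at 0.95 ± 0.28 (limma, adjusted p = 0.0421). It missed the threshold in 14 of 22 alternatives, with an adjusted p of 0.0515 to 0.21. Among them were the fits without Opn4 crush 1 (adjusted p = 0.081), Opn4 crush 2 (0.13), Opn4 sham 2 (0.0529), HB9 crush 1 (0.0786), HB9 crush 2 (0.0558), HB9 crush 3 (0.164), HB9 sham 1 (0.0515) and HB9 sham 2 (0.0618), and the highest adjusted p, 0.21, came with the rod markers as a covariate. After sham, the Rtn4rl1 libraries of the classes overlapped.

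**Figure D4:**
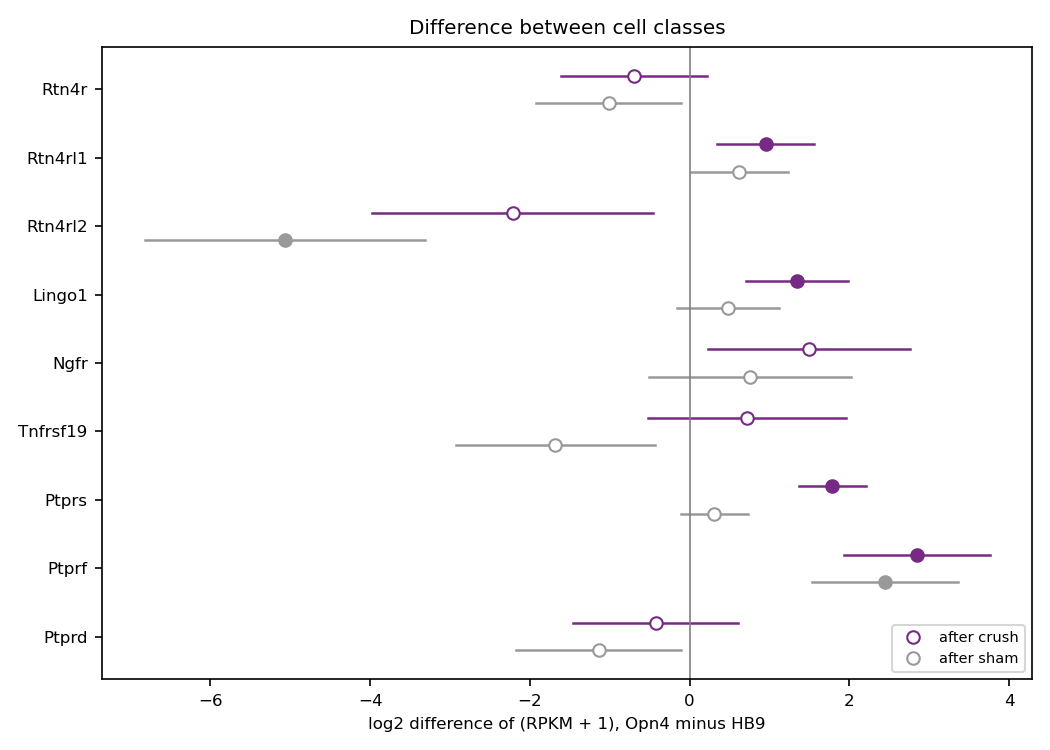
Difference between Opn4 and HB9 cells for the 9 tested receptors, as the log2 difference of RPKM + 1 after crush (purple, above) and after sham (grey, below), with 95% intervals from the limma fit. Filled points passed an adjusted p of 0.05, and Ptprf is the receptor with a filled point under both conditions.

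Some genes had nearly the same pattern as a receptor over the 12 libraries, measured as the root mean square difference of log2(RPKM + 1) after centring each gene. Nearest to Ptprs were Gatsl2 (0.25), Epb4.1l1 (0.25) and Akap13 (0.28), where the median gene was at 0.96. Akap13, an anchoring protein that also activates RhoA, averaged 13.7 RPKM in Opn4 crush and 6.08 RPKM in Opn4 sham, and 4.55 RPKM in HB9 crush and 4.50 RPKM in HB9 sham libraries. Nearest to Rtn4rl1 were the pseudogenes Gm6781 (0.22), Gm3756 (0.25) and Gm14150 (0.25), whose reads may belong to near-identical copies, so these are uncertain. Nearest to Lingo1 were Nptxr, a neuronal pentraxin receptor (0.21), Npcd (0.23), which overlaps Nptxr on the same strand and can share its reads, and Acsl4 (0.25). Nearest to Ptprf were the potassium channel gene Kcnq5 (0.38), Riiad1 (0.39) and the scaffold gene Dlg1 (0.40). Nearest to Rtn4rl2, at larger distances, were the Wnt receptor gene Fzd1 (0.62), the muscarinic receptor gene Chrm3 (0.76) and the channel-interacting protein gene Kcnip4 (0.77). The median gene was at 2.23 from Rtn4rl2. Fzd1 was also listed at a mean of 0 in Opn4 sham libraries, against 21.8 RPKM in HB9 sham libraries.

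The inhibitory ligands were measured in the same cells, 8 of 11 listed genes passing the filter on low values. For this list and those below, the shares of all genes tested that passed were 1.11% for crush in Opn4 cells and 6.42% in HB9 cells. Between classes they were 12.7% after crush and 11.8% after sham. After crush none of the ligands passed in Opn4 cells (limma, 2 at an unadjusted p under 0.05) and none in HB9 cells (limma, 3 at an unadjusted p under 0.05), and the list medians were 0.20 and -0.49. Rtn4, which encodes Nogo, averaged 59.8 ± 8.2 RPKM in Opn4 crush and 59.6 ± 8.9 RPKM in Opn4 sham, and 96.8 ± 10.1 RPKM in HB9 crush and 71.5 ± 14.9 RPKM in HB9 sham libraries (SD, n = 3 each). After crush it was lower in Opn4 than in HB9 cells, at -0.69 ± 0.21 (limma, adjusted p = 0.0493). Omg, which encodes the GPI-anchored OMgp, had the largest class difference of the 8 tested ligand genes under both conditions. It averaged 3.77 ± 6.54 RPKM in Opn4 crush and 13.7 ± 7.7 RPKM in Opn4 sham, and 34.4 ± 11.4 RPKM in HB9 crush and 149.9 ± 11.8 RPKM in HB9 sham libraries (SD, n = 3 each). Its class difference was -3.89 after crush (limma, adjusted p = 0.00545) and -3.47 after sham (limma, adjusted p = 0.01).

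The crush effect on Omg missed the threshold in Opn4 cells (-2.55, limma, adjusted p = 0.143) and in HB9 cells (-2.14, limma, adjusted p = 0.132), while its average over both classes passed (-2.35 ± 0.54, limma, adjusted p = 0.0206). Bcan, a proteoglycan gene, was lower in Opn4 than in HB9 cells after sham (-3.07, limma, adjusted p = 0.00157). Mag, the gene of the myelin-associated glycoprotein, ran from 0 to 10.4 RPKM in Opn4 crush libraries and from 0 to 5.43 RPKM in Opn4 sham libraries, was at 0 in HB9 crush libraries and reached 0.587 RPKM in HB9 sham libraries, and it passed no test. Of the 10 oligodendrocyte lineage markers, Olig1 and Olig2 were at 0 in all 12 libraries and 5 stayed under 1 RPKM in all 12, while Cnp ran from 5.00 to 37.1 RPKM over the 12 libraries and Mbp from 7.52 to 18.2 RPKM in the HB9 libraries. The ligand most abundant beside Omg and Rtn4 was the neuronal proteoglycan gene Cspg5, at a mean of 43.0 RPKM over the 12 libraries.

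Other receptors and co-receptors of these inhibitors, 8 of 9 listed genes tested, held 0 called genes in the Opn4 crush comparison (limma, 3 at an unadjusted p under 0.05), with a median of 0.11. The most abundant were the tetraspanin gene Tspan3, with a mean of 539 RPKM, and Lrp1, a large endocytic receptor that binds MAG, with a mean of 13.9 RPKM. In HB9 cells Tspan3 fell by 0.70 on the log2 scale, to 368 ± 46.7 RPKM in HB9 crush against 598 ± 46.1 RPKM in HB9 sham libraries (limma, adjusted p = 0.0122, SD, n = 3 each), and the list median was -0.02. Lrp1 was higher in Opn4 than in HB9 cells after crush (1.94, limma, adjusted p = 0.00771) and after sham (1.37, limma, adjusted p = 0.0455), the 1 gene of 8 called after crush. After sham, Lingo2 was higher in Opn4 cells (1.64, limma, adjusted p = 0.02) and Lingo4 lower (-2.43, limma, adjusted p = 0.032), both relatives of Lingo1. A pseudogene overlaps Lingo2, so its value is uncertain.

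Ligands of the LAR-family phosphatases at synapses and on the cell surface, 15 of 16 listed genes tested, held 1 gene that rose after crush in Opn4 cells. This was Slitrk6, a synapse-organising transmembrane protein gene, at 5.72 ± 1.70 RPKM in Opn4 crush and 0.0142 ± 0.0123 RPKM in Opn4 sham libraries (SD, n = 3 each; log2 change 2.69 ± 0.54, limma, adjusted p = 0.0309). In HB9 cells the heparan sulfate proteoglycan gene Gpc1 rose, with 127 ± 35.1 RPKM in HB9 crush against 38.2 ± 13.9 RPKM in HB9 sham libraries (1.75 ± 0.29, limma, adjusted p = 0.00252, SD, n = 3 each). Slitrk5 fell, with 6.04 ± 3.86 RPKM in HB9 crush against 18.4 ± 5.0 RPKM in HB9 sham libraries (-1.58 ± 0.40, limma, adjusted p = 0.033, SD, n = 3 each). The list medians were 0.38 in Opn4 and 0.01 in HB9 cells.

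Between classes, 5 of the 15 LAR-family ligand genes passed after crush, each of them higher in Opn4 than in HB9 cells, where 5.12% of all genes passed in that direction. The 4 with the largest difference were Ntrk3, the gene of the receptor TrkC, which also binds PTPσ (2.79, limma, adjusted p = 9.21e-04), Slitrk3 (2.69, adjusted p = 0.033), Il1rap (2.37, adjusted p = 0.0151) and Slitrk5 (1.97, adjusted p = 0.00649). After sham, 3 were higher and 2 lower, where 11.8% of all genes passed in either direction. Ntrk3 (3.45, limma, adjusted p = 1.77e-04) and the syndecan gene Sdc3 (1.80, adjusted p = 0.00111) were higher, and Slitrk6 (-3.38, adjusted p = 0.00125) and Il1rapl1 (-2.40, adjusted p = 0.0381) lower. Ntrk3 averaged 21.2 ± 5.2 RPKM in Opn4 crush and 21.4 ± 6.8 RPKM in Opn4 sham libraries, and 2.17 ± 0.25 RPKM in HB9 crush and 1.11 ± 0.92 RPKM in HB9 sham libraries (SD, n = 3 each).

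Intracellular partners of the LAR family, 11 of 12 listed genes tested, held 0 called genes in Opn4 cells (limma, 2 at an unadjusted p under 0.05; median 0.02), and the most abundant over the 12 libraries were Ctnnb1, the gene of beta-catenin, with a mean of 168 RPKM, and Cttn. Cttn, which encodes the actin-binding protein cortactin, rose in HB9 cells, with 140.2 ± 13.4 RPKM in HB9 crush against 50.4 ± 1.3 RPKM in HB9 sham libraries (1.46 ± 0.17, limma, adjusted p = 2.18e-04, SD, n = 3 each), among a list median of 0.28. In Opn4 cells Cttn was at 121 ± 14.2 RPKM after crush and 71.1 ± 7.9 RPKM after sham (SD, n = 3 each), and missed the threshold. Caskin1, a scaffold gene, was higher in Opn4 than in HB9 cells after crush (1.23, limma, adjusted p = 0.028), and after sham 0 of the 11 passed (limma, 2 at an unadjusted p under 0.05).

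Downstream, the list of RhoA, ROCK, cofilin and CRMP2 signalling had all 18 genes tested and 0 called in Opn4 cells (limma, 6 at an unadjusted p under 0.05; median 0.04). Its most abundant genes were Cfl1, the gene of cofilin, with a mean of 541 RPKM, and the GTPase gene Cdc42, with a mean of 327 RPKM. In HB9 cells Rhoc, a close relative of RhoA, rose, with 53.4 ± 12.2 RPKM in HB9 crush against 6.30 ± 5.36 RPKM in HB9 sham libraries (3.11 ± 0.40, limma, adjusted p = 4.53e-04, SD, n = 3 each). Dpysl2, the gene of the growth cone protein CRMP2, fell, with 78.6 ± 2.0 RPKM in HB9 crush against 126.9 ± 7.9 RPKM in HB9 sham libraries (-0.68 ± 0.14, limma, adjusted p = 0.0121, SD, n = 3 each). The list median there was 0.33. After crush Rhob (1.53, limma, adjusted p = 0.0151) and Dpysl2 (0.53, adjusted p = 0.0295) were higher in Opn4 than in HB9 cells and Arhgef11, an activator of RhoA, lower (-1.37, adjusted p = 0.0118). After sham Rhoc (2.28, limma, adjusted p = 0.00233) and the inhibitor gene Arhgdia (0.65, adjusted p = 0.0309) were higher and the LIM kinase gene Limk1 lower (-2.13, adjusted p = 0.0198).

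For the difference of crush effects, 0 of the 60 tested genes on these 5 lists passed (limma, 12 at an unadjusted p under 0.05, lowest adjusted p = 0.102), where 0.816% of all genes did. The list medians were 0.49 for the ligands, 0.42 for the other receptors, 0.93 for the LAR-family ligands, 0.14 for their partners and -0.04 for RhoA signalling. Over both classes together, 6 of the 60 passed, where 6.98% of all genes did, 3 higher after crush (Gpc1, Cttn and Rhoc) and 3 lower (Omg, Tspan3 and Dpysl2). In the HB9 crush comparison the Cd68, ganglion cell, Muller glia and amacrine marker values given above moved with the groups as well. Of 7 tested direction-selective cell markers 2 were called lower there, with a list median of -0.905. Of 7 melanopsin cell markers 2 were called higher (median 0.267), and of 10 bipolar cell markers 1 was called lower (median -0.686). In that comparison 6.42% of all genes passed. The part of all these markers in the changes above was not tested.

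**Figure D5:**
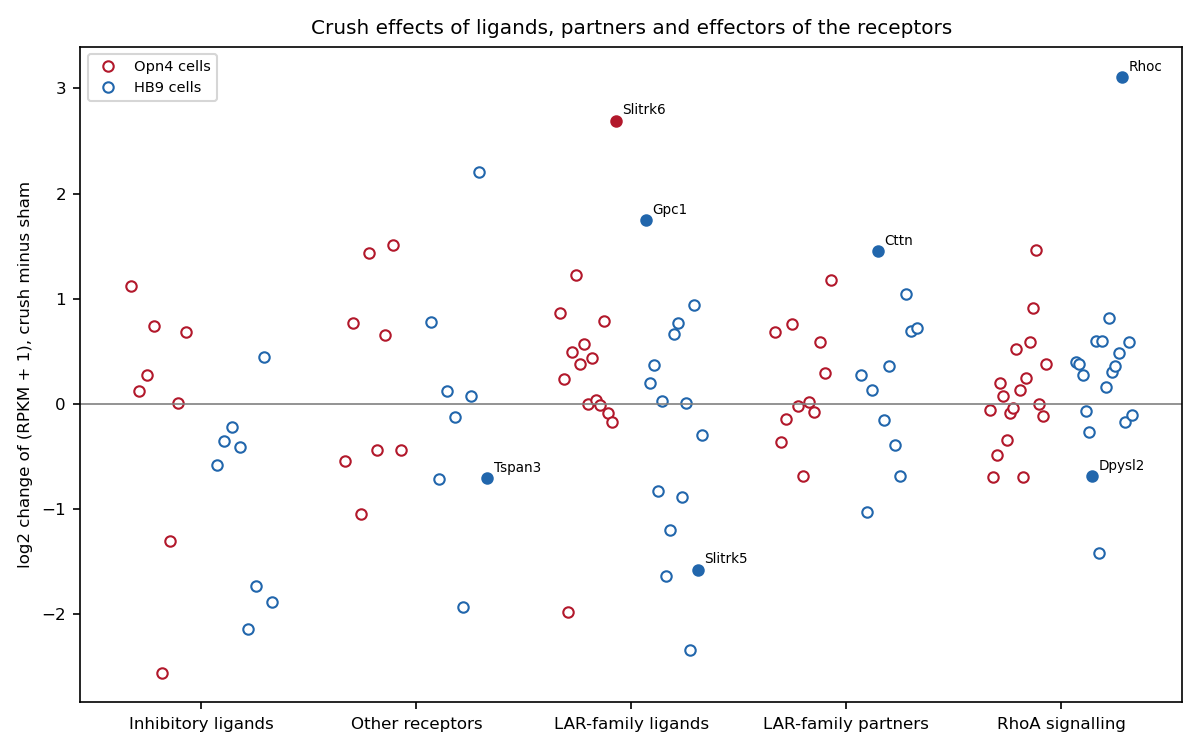
Log2 crush effect of RPKM + 1 for the 60 tested genes on the 5 lists, in Opn4 cells (red, left of each pair) and HB9 cells (blue, right). Filled, named points passed an adjusted p of 0.05: 1 gene in Opn4 cells and 6 in HB9 cells.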

How the data were processed

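RNA was measured in 12 libraries in 4 groups of 3, and the groups were taken from the sample titles. The deposited table holds RPKM values that the authors made. Genome build mm10 is given by the submitters' processing notes, which also list edgeR 3.14.0, TopHat2 2.0.11 and Bowtie; the counting of reads and the annotation are not given in the sources used here. For every gene above 0, the RPKM values fell on whole multiples of 1 read (tolerance 0.001), which gave each library's scaling total and the reads per gene. Recovered reads came to 226.7% to 244.2% of the scaling totals, a surplus the sources used here do not explain, so reads serve only for read counts, the floor and 1 alternative.

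Tests used log2(RPKM + 1) of the 18269 genes that reached 1 RPKM in 3 or more libraries. They were two-sided moderated tests in R 4.3.3 (limma 3.58.1, eBayes with trend), with Benjamini-Hochberg adjustment and a threshold of 0.05. Log2 changes of low genes are damped by the pseudocount. The fit was tested on made data with known changes. The p-values cover the spread between libraries of 3 mice each. RNA was amplified and no molecular identifiers are described, so the floor of 3 reads covers counting error only.

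The members, the 5 pathway lists and the marker lists (ganglion cells and each of their 2 classes, photoreceptors of both kinds, amacrine and bipolar cells, macroglia, microglia with macrophages, oligodendrocyte lineage, vascular cells) were chosen with earlier results of these data known. Named genes followed a rule: every member; in each list and comparison up to 4 called genes with the largest change, or the 2 most abundant where none was called; Rtn4, Mag and Omg always; and the 3 genes nearest in pattern to each called member. The average of both crush effects was added after the data were seen. Markers named singly, Akap13's and Fzd1's levels, and the E-box search were chosen after their values were seen. Alternatives were another pseudocount (0.1), no filter, a filter at 5 RPKM, equal library medians, the compared libraries alone, library weights, a replicate block, rod markers as a covariate, voom on recovered reads, leaving out Opn4 crush 1 and Opn4 sham 1 together, and leaving out each library. Coordinates are those of the deposited table, and 7 of 10 members had the same ones in GENCODE M21.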

Additional observations from a re-analysis of the deposited data

Results flagged for a closer look

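The crush effect on Ptprs differed between the cell classes, with a log2 difference of 1.48 ± 0.27 between Opn4 and HB9 cells (limma, adjusted p = 0.0276). Its level was above every sham library in 3 of 3 Opn4 crush libraries. In HB9 cells the groups overlapped, at 81.4 to 134 RPKM after crush and 117.5 to 147 RPKM after sham, and the change was not called (limma, adjusted p = 0.348). The adjusted p of the difference between classes ran from 0.017 to 0.0849 over 21 alternatives, and the estimate from 1.29 to 1.65.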

How the results depend on the processing

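The 10 calls of members in 6 comparisons kept their direction in every alternative run. Over 54 member values and 1158 alternative fits, 1080 stayed on the same side of the threshold with the same sign, 29 lost a call, 9 gained one and 40 changed sign, all 40 between values that were not called. Fits of the compared libraries alone called 13 genes and 0 members for crush in Opn4 cells, and 1939 genes and 3 members for crush in HB9 cells. Library weights gave 87 genes and 0 members in Opn4 cells and 3025 genes and 3 members in HB9 cells. Without Opn4 crush 1 and Opn4 sham 1 together, 0 members were called in Opn4 cells, 2 in HB9 cells and 0 for the difference of effects. For that difference the pseudocount of 0.1 gave 90 genes, against 149, and no filter gave 0 members. With the rod markers as a covariate, 1077 genes differed between classes after crush, against 2325, and 952 after sham, against 2148. Leaving out 1 library gave 645 to 1393 genes and 0 to 2 members for crush in HB9 cells, 61 to 156 genes and 0 to 1 members for the difference, 1356 to 2619 genes for the classes after crush, 1348 to 2353 after sham, and 799 to 1218 for the average crush effect. The cause of these changes was not tested. Some of these fits also rest on fewer libraries.

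Sign changes of uncalled log2 values in Opn4 cells after crush were Lingo1 (-0.0363 with equal medians, -0.18 weighted, -0.47 without both libraries numbered 1), Rtn4r (-0.029 weighted, -0.42 without both), Ptprf (-0.0735 weighted, -0.00566 without both) and Tnfrsf19 (-0.0557 without both). Leaving out 1 library gave -0.11 to 0.52 for Rtn4r, -0.26 to 0.22 for Lingo1, -0.27 to 0.33 for Ptprf and -0.73 to 0.24 for Ptprd. In HB9 cells Ngfr was at -0.12 with equal medians, -0.11 with the rod covariate and -0.16 to 0.21 without 1 library, and Rtn4r at -0.35 to 0.10 without 1 library. The difference of effects for Rtn4r was -0.30 without both libraries numbered 1, and the class difference of Ptprd after crush ran from -0.88 to 0.0851 without 1 library. The average crush effect was 0.33 for Rtn4rl2 with the pseudocount of 0.1, 0.75 with voom, 0.15 without both libraries numbered 1 and -0.79 to 0.15 without 1 library. It was -0.0741 for Rtn4r with equal medians, -0.18 weighted, -0.27 without both and -0.12 to 0.20 without 1 library, and 0.00783 for Ptprf with the rod covariate and -0.30 to 0.0275 without 1 library.

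With the replicate number as a block, 98 genes were called for the difference of effects, against 149 without it, and no member's call changed. Same-numbered libraries of different groups deviated together by a correlation of -0.02 to 0.08, with 0 of 18 pairs over 0.1, so the numbers do not pair the libraries. The filter at 5 RPKM removed Tnfrsf19 and Ngfr, which have no value there. Depth limits the low members, with 3 to 142 reads per library for Pirb, 3 to 551 for Ngfr and 0 to 541 for Tnfrsf19, and 0 for Rtn4rl2 in 5 of 6 Opn4 libraries.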

Other observations

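Marker sums of other cells, in RPKM per library, were as follows. Muller glia and astrocyte markers summed to 849 to 1084 in Opn4 crush and 577 to 665 in Opn4 sham, and 851 to 2244 in HB9 crush and 456 to 509.7 in HB9 sham libraries. Bipolar cell markers summed to 100.0 to 425 in Opn4 crush and 138 to 247 in Opn4 sham, and 28.6 to 95.8 in HB9 crush and 83.7 to 152 in HB9 sham libraries. Amacrine markers summed to 67.9 to 85.9 in Opn4 crush and 46.3 to 137 in Opn4 sham, and 61.9 to 151 in HB9 crush and 28.6 to 34.9 in HB9 sham. Cone markers ranged from 6.0 to 413 over the 12 libraries, oligodendrocyte lineage markers from 5.03 to 44.0, and vascular markers from 1.77 to 10.4. Melanopsin cell markers summed to 2332 to 2779 in Opn4 crush and 2604 to 3894 in Opn4 sham, and 276 to 349.6 in HB9 crush and 41.6 to 61.2 in HB9 sham. In HB9 cells most of that sum was Adcyap1, at 263 to 323 after crush and 38.2 to 49.9 after sham. Eomes was also higher there, at 6.88 to 9.45 after crush and 0 to 1.68 after sham. The HB9 groups overlapped for Opn4, and Tbx20, Trpc7 and Gna14 stayed at or under 0.328 in HB9 crush. Direction-selective cell markers summed to 117 to 183 in Opn4 crush and 152 to 202 in Opn4 sham, and 1480 to 6524 in HB9 crush and 4959 to 6304 in HB9 sham, where the gene Mnx1, which names the HB9 line, was lower after crush, at 1.13 to 3.06 RPKM, against 20.9 to 41.7 RPKM after sham.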
